A study of Mus musculus with 6 samples.

Results

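The 9 genes described here are Foxo1, Foxo3 and Foxo4, the sestrin genes Sesn1, Sesn2 and Sesn3, and Ccng2, Gabarapl1 and Irs2. They are 9 of the 55487 gene identifiers in the deposited tables, and they were chosen by name, with earlier results of the same mLN against spleen contrast known. Their differences between the tissues are therefore given as a description, without p-values. The series holds polyA RNA-seq of naive CD4+ T (TN) cells, T helper cells that have not yet met their antigen. There were 3 libraries from the mesenteric lymph node (mLN), which drains the gut, and 3 libraries from the spleen, which filters blood. The cells were freshly isolated from wild-type mice of the C57BL6/J strain without any treatment, so all libraries share genotype, strain and the absence of treatment. The labels give neither the age of the mice, nor how the naive cells were sorted, nor whether replicates came from separate animals, so every p-value below reflects library-to-library variation only, and that could be technical.

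FOXO proteins are forkhead transcription factors held in the cytoplasm when growth factor or antigen receptor signals activate PI3K and AKT, and they enter the nucleus when those signals are low. In naive T cells FOXO1 is known for keeping cells quiescent and recirculating, through genes such as Il7r, Klf2 and Ccr7. Sestrins are stress-inducible proteins that restrain mTORC1 through the GATOR2 complex, with SESN2 known as a leucine sensor. Sesn1, Sesn3, Ccng2, Gabarapl1 and Irs2 are known in other cell types as genes that FOXO factors can switch on, and Sesn1 and Sesn2 also as p53 targets.

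The stretches before the transcription starts of Foxo1, Sesn3 and Sesn1 are shown because per length these genes had the highest levels of their families and Sesn1 and Sesn3 differed in opposite directions. Each is the 250 bases upstream of the annotated start (RefSeq, build GRCm38.p6), 5′ to 3′ on the gene's strand, with CCAAT boxes on either strand in capitals (ATTGG on the strand shown). CCAAT boxes are bound by the factor NF-Y.
Foxo1, chr3:52268087-52268336, plus strand: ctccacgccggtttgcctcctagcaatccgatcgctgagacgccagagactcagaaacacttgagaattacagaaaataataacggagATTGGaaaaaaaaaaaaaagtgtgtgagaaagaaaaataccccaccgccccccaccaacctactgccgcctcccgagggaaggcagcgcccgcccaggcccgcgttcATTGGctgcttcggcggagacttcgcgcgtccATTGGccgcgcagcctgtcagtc
Sesn3, chr9:14276051-14276300, plus strand: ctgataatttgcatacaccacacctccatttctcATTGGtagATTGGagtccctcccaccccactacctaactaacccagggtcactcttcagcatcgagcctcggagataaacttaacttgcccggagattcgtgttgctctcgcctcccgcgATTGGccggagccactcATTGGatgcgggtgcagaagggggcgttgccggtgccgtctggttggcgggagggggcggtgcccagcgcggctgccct
Sesn1 at its downstream start, chr10:41887189-41887438, plus strand: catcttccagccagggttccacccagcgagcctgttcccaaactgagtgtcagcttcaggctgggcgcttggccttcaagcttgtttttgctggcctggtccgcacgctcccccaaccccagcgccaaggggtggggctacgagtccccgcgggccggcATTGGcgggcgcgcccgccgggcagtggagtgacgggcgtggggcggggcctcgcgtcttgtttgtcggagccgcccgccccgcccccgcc
Foxo1 held 3 CCAAT boxes, at positions -162, -55 and -23 from the start, and Sesn3 held 4, at -216, -208, -96 and -79. Sesn1 held 1 at this start, at -91. Over windows of 250 bases before and 50 after each start, 6 of the 9 windows of the members held a CCAAT box, against 37.4% of all 32851 RefSeq windows. RefSeq gave 9 windows for 8 members, 2 of them for Sesn1.

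The FOXO recognition motif was searched on both strands in the same windows as GTAAACA and as ATAAACA, spellings that differ in the first letter and were counted separately. GTAAACA was present in 1 of the 9 windows, against 3.65% of all windows, and ATAAACA in 1 of the 9, against 4.60%. The 2 matches are shown with their flanks, the motif in capitals.
Sesn1 at its upstream start, chr10:41810585-41810614, plus strand (the motif lies on the minus strand, 23 bases past the RefSeq start): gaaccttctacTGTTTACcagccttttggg
Gabarapl1, chr6:129533086-129533115, plus strand (motif at position -95): aagatacacaaATAAACAaagcttctgtcc
A match is a sequence of letters and not a measured binding site, and a window without one says only that these letters are not in it. The GC box GGGCGG, bound by SP1-type factors, was present in all 9 windows of the members, against 35.7% of all windows.

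The libraries held 16139769, 13205499 and 20054205 expected counts in mLN replicates 1 to 3, and 14224966, 17862485 and 16218912 in spleen replicates 1 to 3. All 9 genes passed the filter on low counts, which left 12486 genes. Across these genes edgeR's quasi-likelihood test at a Benjamini-Hochberg adjusted p under 0.05 called 29.6%, with 16.1% higher and 13.5% lower in mLN. Of the 9 members 5 were past that threshold, Foxo1, Foxo3 and Sesn3 higher and Sesn1 and Ccng2 lower in mLN, a count that the choice of genes makes uninformative. The log2 fold change of a gene correlated with the length of its transcripts (Spearman rho of 0.37 across 12486 genes, which are not independent replicates). Among the 607 tested genes with transcripts over 6000 nt, 45.6% were higher and 2.64% lower in mLN. Among the 5134 genes of 2000 to 4000 nt, 18.5% were higher and 9.56% lower. With this trend removed by a loess offset, 23.5% of all genes were called, 14.4% higher and 9.19% lower, and the members' fold changes are given both with the trend left in and with it removed. The part of transcript length in the results was not tested further.

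Markers of other blood cells also differed between the tissues. The summed level of 8 macrophage and monocyte markers ranged from 3.19 to 4.56 CPM (counts per 1000000 counts of a library, its size scaled by edgeR's TMM factor) in mLN and from 34.9 to 35.9 CPM in spleen, with 5 of 6 tested genes lower in mLN. The 5 neutrophil markers summed to 0.150 to 0.843 CPM in mLN and to 25.6 to 32.2 CPM in spleen, with 4 of 4 tested genes lower. The 5 B cell markers summed to 7.88 to 11.8 CPM in mLN and to 24.8 to 26.0 CPM in spleen, with 4 of 5 lower. The 5 dendritic cell markers summed to 0.751 to 1.10 CPM in mLN and to 4.80 to 9.62 CPM in spleen, with 2 of 3 tested genes lower and Flt3 at 0 in the mLN libraries. The 8 T cell markers, among them Cd3e, Cd4 and Trac, summed to 4328 to 4420 CPM in mLN and to 4891 to 5143 CPM in spleen, so the labelled cell type had its markers in every library. The 3 plasma cell markers summed to 37.3 to 45.8 CPM in mLN and to 50.6 to 56.5 CPM in spleen, with 1 of 2 tested genes lower, and the 5 markers of activated or regulatory T cells to 29.2 to 34.0 CPM in mLN and to 38.0 to 44.5 CPM in spleen, with 1 of 5 lower. The 2 CD8 markers summed to 12.5 to 20.4 CPM in mLN and to 16.1 to 17.8 CPM in spleen. Erythroid markers reached at most 0.676 CPM in mLN and 0.374 CPM in spleen, and NK markers at most 0.397 CPM in mLN and 1.82 CPM in spleen. The 5 stroma and endothelium markers summed to 203 to 218 CPM in mLN and to 236 to 248 CPM in spleen. Only 1 of them passed the filter on low counts, and it was lower in mLN. That sum therefore rested mainly on 1 gene and is not a measure of stromal cells. Which cells that gene's RNA came from was not tested. The part of these cells in the values below was not tested, and in bulk RNA fewer cells of a type cannot be told apart from less RNA per cell.

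Foxo1, the main FOXO factor of naive T cells, was higher in mLN libraries. Its locus is on the plus strand of chromosome 3 (mm10, 52268336 to 52353221), with 1 annotated transcript of 8665 nt. It had 422, 430 and 396 CPM in mLN replicates 1 to 3, against 299, 303 and 317 CPM in spleen replicates 1 to 3. Every mLN library was above every spleen library. Its log2 fold change, mLN minus spleen, was 0.44 ± 0.06 (SE), a 1.36-fold difference, and 0.18 ± 0.05, still past the threshold, with the length trend removed. An antisense gene, Gm20402, overlaps 1001 bases of the Foxo1 locus at a mean of 34.7 counts, and the strand setting of the counting is not given in the sources used here.

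Foxo3, which shares much of FOXO1's DNA binding, was also higher in mLN. The gene is on the minus strand of chromosome 10 (42181841 to 42276755). It had 92.5, 91.9 and 110.4 CPM in mLN, against 63.8, 79.0 and 79.7 CPM in spleen. The groups did not overlap, with mLN replicate 3 highest and spleen replicate 1 lowest. This was a log2 fold change of 0.41 ± 0.10. It was 0.20 ± 0.10 and no longer past the threshold with the length trend removed, and 0.35 ± 0.16, also not past it, on log2 TPM (RSEM's values per transcript length) centred on each library's median.

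Foxo4, on the X chromosome (101254528 to 101260873, plus strand), had nearly level scaled counts. It had 40.3, 43.6 and 41.8 CPM in mLN, against 36.9, 38.3 and 43.7 CPM in spleen. The highest of the 6 values was spleen replicate 3, so the groups overlapped. Between tissues the log2 fold change was 0.08 ± 0.11, 0.06 ± 0.10 without the length trend, and -0.01 ± 0.11 on median-centred log2 TPM. The fourth family member, Foxo6, had 0 counts in every library, where 3 counts correspond to 0.150 to 0.227 CPM.

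**Figure D1:**
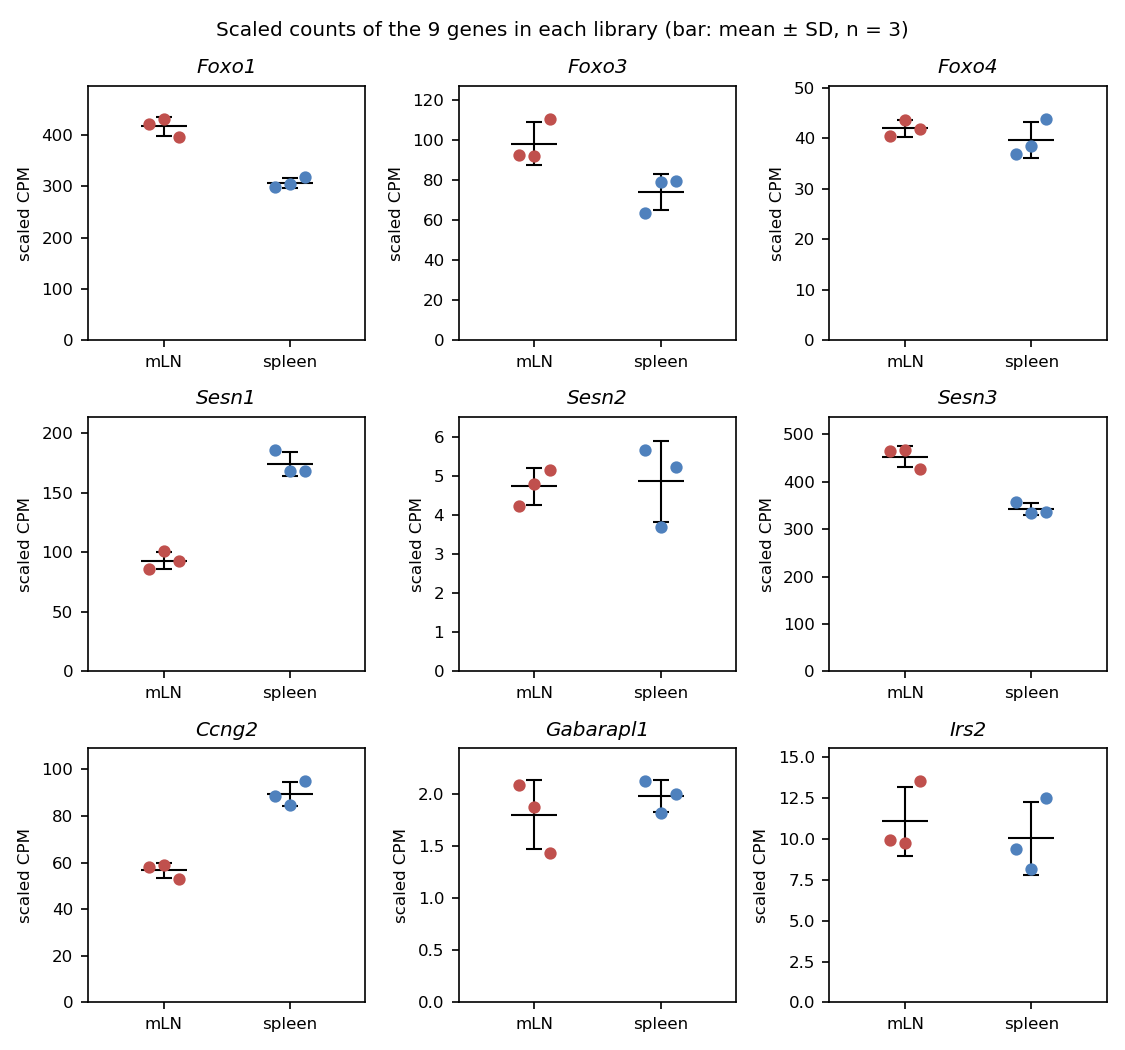
Scaled counts (CPM) of the 9 genes (y axes, each from 0) in the mLN libraries (left, red points) and spleen libraries (right, blue points), with the mean and SD of 3 libraries as bars. Foxo1, Foxo3 and Sesn3 are higher and Sesn1 and Ccng2 lower in every mLN library than in every spleen library, and the groups overlap for the other 4 genes.

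The sestrin genes divided. Sesn1, a p53- and FOXO-responsive sestrin, was lower in mLN, and on scaled counts its difference was the largest of the 9 genes. Its locus spans 41809935 to 41908424 on the plus strand of chromosome 10. It had 85.8, 100.7 and 92.8 CPM in mLN, against 186, 168 and 169 CPM in spleen. Every mLN library was below every spleen library, by a margin wider than the spread within either tissue. The log2 fold change was -0.90 ± 0.08, a 0.535-fold level, and it was -0.91 ± 0.08 with the length trend removed. On log2 TPM it was -0.66 ± 0.10, smaller in size than the 0.69 ± 0.08 of Foxo1 on that scale. Leaving out any 1 library gave -0.97 to -0.85.

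Sesn3, known as a FOXO target in fibroblasts and muscle, was higher in mLN. It lies on the plus strand of chromosome 9 (14275067 to 14333101). It had 465, 467 and 428 CPM in mLN, against 356, 333 and 337 CPM in spleen. All mLN values were above all spleen values, with a log2 fold change of 0.41 ± 0.06. The value was 0.15 ± 0.05, past the threshold, with the length trend removed, and 0.32 ± 0.10, not past it, on median-centred log2 TPM.

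Sesn2, the leucine-binding sestrin, was scarce in both tissues. Encoded on the minus strand of chromosome 4 (132492032 to 132510501), it had 4.24, 4.80 and 5.15 CPM in mLN, against 5.66, 3.69 and 5.23 CPM in spleen, from 64 to 104 expected counts a library. The spleen libraries held both the highest and the lowest value. The log2 fold change was -0.03 ± 0.29 (-0.07 ± 0.28 without the length trend). Whether a difference of the size seen for Foxo1 could be detected at this SE was not tested, so the values do not show that the tissues were alike.

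Levels of different genes are compared in TPM, which is per length. On the log2 TPM scale the median difference over tested genes was itself 0.21, mLN minus spleen, so sums are given as deposited and also with TPM scaled to the same library median, an alternative chosen after seeing the data. The 3 sestrins summed to 136, 145 and 134 TPM in mLN, against 159, 135 and 137 TPM in spleen, with overlap. Scaled to the same median, they summed to 124, 132 and 124 in mLN, against 175, 150 and 150 in spleen, without overlap. Sesn1 made up 37.5 to 41.6% of that sum in mLN and 59.3 to 61.8% in spleen. Sesn3 made up 57.0 to 61.1% in mLN and 37.0 to 39.4% in spleen. The ratio of Sesn1 to Sesn3 in TPM, taken within each library, was 0.680 ± 0.060 in mLN and 1.61 ± 0.091 in spleen (SD, n = 3 each). Sesn3 was thus the more abundant sestrin in every mLN library and Sesn1 in every spleen library.

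The FOXO genes summed to 114, 117 and 113 TPM in mLN, against 71.3, 76.6 and 81.1 TPM in spleen. Scaled to the same median, they summed to 104, 107 and 104 in mLN, against 78.6, 84.6 and 88.4 in spleen, the groups still apart. Shares within a library do not depend on that scaling, but they carry the length trend: the log2 fold changes of Foxo1 and Foxo4 were 0.44 and 0.08 with the trend and 0.18 and 0.06 without it, and those of Sesn1 and Sesn3 -0.90 and 0.41 with it and -0.91 and 0.15 without it. Foxo4 made up 18.9 to 19.5% of the FOXO sum in mLN and 23.9 to 24.5% in spleen. Foxo1 made up 59.2 to 63.3% in mLN and 55.4 to 59.8% in spleen, with overlapping ranges. Foxo3 made up 17.8 to 21.6% in mLN and 16.3 to 20.03% in spleen, also overlapping. In TPM the mLN values of Foxo4 (21.5, 22.9 and 21.6) lay above those in spleen (17.0, 18.6 and 19.9), unlike its scaled counts.

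**Figure D2:**
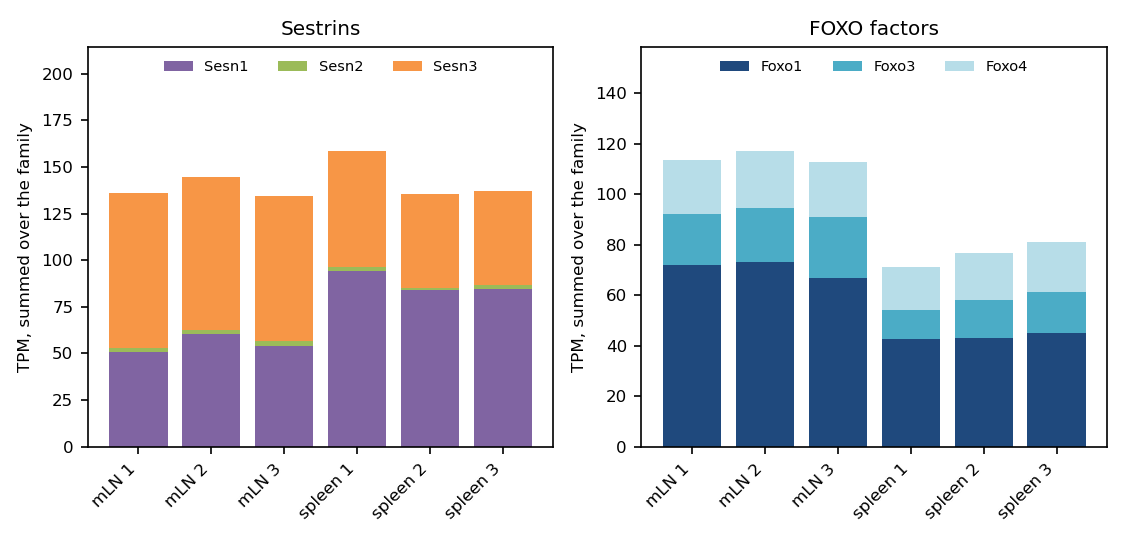
Stacked TPM of the sestrin genes (left panel) and the FOXO genes (right panel) in each library, mLN replicates 1 to 3 followed by spleen replicates 1 to 3. Sesn3 fills 57.0 to 61.1% of the sestrin bar in mLN and 37.0 to 39.4% in spleen, while the summed sestrin level overlaps between tissues as deposited and lies lower in mLN when TPM is scaled to the same library median.

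Ccng2, which encodes cyclin G2, an unusual cyclin linked to cell cycle arrest rather than to division, was lower in mLN. Its locus is on the plus strand of chromosome 5 (93267257 to 93276231). It had 58.0, 59.1 and 52.9 CPM in mLN, against 88.6, 84.7 and 94.9 CPM in spleen. No mLN library reached the lowest spleen library. The log2 fold change was -0.66 ± 0.09, a 0.633-fold level, and it was -0.66 ± 0.09 with the length trend removed. On log2 TPM without centring it was -0.32 ± 0.14 and not past the threshold, and it was -0.56 ± 0.14 and past it with centring.

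Gabarapl1, which encodes an ATG8-type protein of the autophagosome membrane, was near the lower end of what these libraries could measure. It lies on the plus strand of chromosome 6 (129533160 to 129542346). It had 2.09, 1.88 and 1.44 CPM in mLN, against 2.12, 1.82 and 1.99 CPM in spleen, from 25 to 34 expected counts a library. The groups overlapped, with a log2 fold change of -0.14 ± 0.47, and -0.04 ± 0.47 without the length trend. In TPM the mLN values (1.93, 1.85 and 2.53) lay above those in spleen (1.75, 1.39 and 1.53), with a log2 difference of 0.28 ± 0.19 and, after median-centring, of 0.03 ± 0.19, neither past the threshold.

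Irs2, an adaptor of the insulin and IL-4 receptors, lies on the minus strand of chromosome 8 (10984681 to 11008458). It had 9.94, 9.76 and 13.5 CPM in mLN, against 9.41, 8.18 and 12.5 CPM in spleen. Replicate 3 was the highest library in both tissues and the groups overlapped. The log2 fold change was 0.15 ± 0.21, and it was -0.05 ± 0.21 with the length trend removed.

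**Figure D3:**
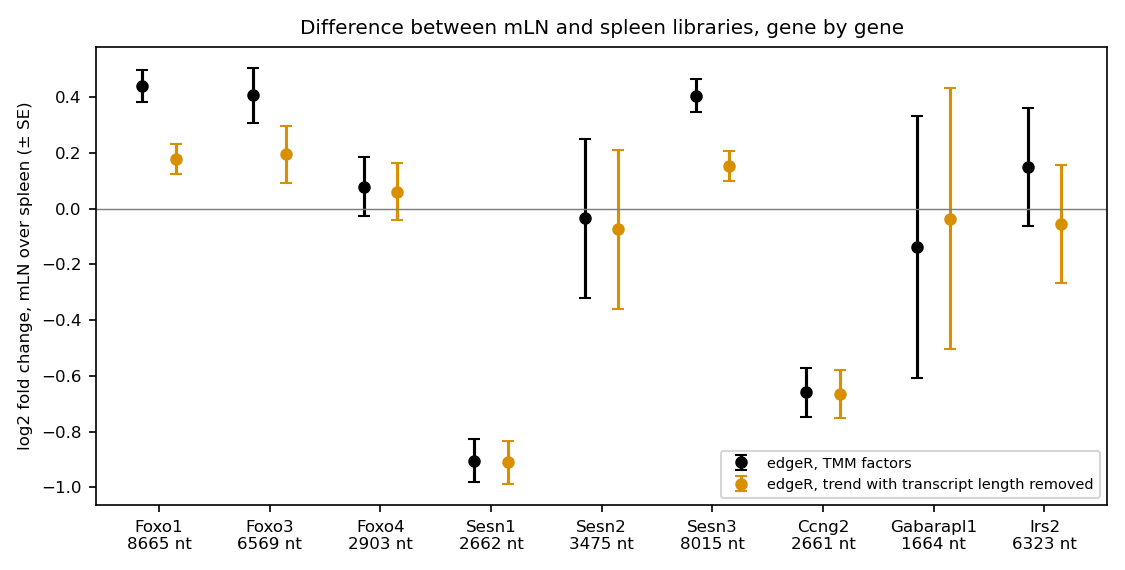
Log2 fold change, mLN over spleen, with its standard error for the 9 genes, from edgeR with TMM factors (black) and with the trend with transcript length removed (orange), each gene labelled with its mean transcript length. Foxo1, Foxo3 and Sesn3, all over 6000 nt, are at 0.44, 0.41 and 0.41 and, with the trend removed, at 0.18, 0.20 and 0.15, while Sesn1 and Ccng2 are at -0.90 and -0.66 and then at -0.91 and -0.66.

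Once the trend with length was taken out, 4 of the 9 genes were past the threshold, where 23.5% of all genes were. On log2 TPM 4 were past it, where 25.2% of all genes were, and on median-centred log2 TPM 3 were past it (Foxo1, Sesn1 and Ccng2), where 14% of all genes were. Foxo1 and Sesn1 were past it, with the same sign, under each of these scalings. The scalings re-express the same libraries, and the members were chosen with this contrast known, so passing under each is no independent support.

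In mLN the order of levels, from the highest, was Sesn3 (81.1 ± 2.94 TPM, SD, n = 3), Foxo1 (70.6 ± 3.43), Sesn1 (55.1 ± 4.65), Ccng2 (34.9 ± 4.57), Foxo4 (22.02 ± 0.777), Foxo3 (21.95 ± 2.16), Irs2 (2.61 ± 0.480), Sesn2 (2.10 ± 0.194) and Gabarapl1 (2.10 ± 0.372). Foxo4 and Foxo3 overlapped, as did Sesn2 and Gabarapl1, and the other neighbours did not overlap. In spleen Sesn1 came first (87.5 ± 5.78 TPM), then Sesn3 (54.6 ± 6.91), Ccng2 (43.8 ± 6.40), Foxo1 (43.5 ± 1.28), Foxo4 (18.5 ± 1.44), Foxo3 (14.3 ± 2.41), Irs2 (1.98 ± 0.437), Sesn2 (1.81 ± 0.388) and Gabarapl1 (1.56 ± 0.181). Here Sesn3 and Ccng2 overlapped, as did Ccng2 and Foxo1, and so did neighbours among the last 3 genes. Sesn3 exceeded 85.4% of all tested genes in mLN and 81.2% in spleen, and Sesn1 exceeded 77.9% in mLN and 89.3% in spleen. Gabarapl1 exceeded 16.7% in mLN and 14.8% in spleen.

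The mean transcript length that RSEM assigned to a gene in each library reads the mix of its transcripts and was not used to choose the genes. It could vary for 6 members. Sesn1 averaged 2684 ± 5.29 nt in mLN and 2640 ± 8.83 nt in spleen (SD, n = 3 each), with no overlap, though by effective length mLN replicate 2 (2383 nt) fell below spleen replicate 2 (2386 nt). Its annotated transcripts of 2600 and 3809 nt begin at the downstream start and ahead of the upstream RefSeq start, and with the third, 90-nt transcript taken as 0 the averages correspond to 6.55 to 7.41% of the long form in mLN and 2.496 to 3.82% in spleen. Foxo4 averaged 2988 ± 31.0 nt in mLN and 2817 ± 96.8 nt in spleen, also without overlap. Both differences had a two-sided exact permutation p of 0.1, the smallest that 3 against 3 libraries allow, and a Benjamini-Hochberg value of 0.3 over the 6 genes, so neither reached significance. Foxo3, Sesn3, Ccng2 and Gabarapl1 overlapped between tissues (exact permutation p of 0.3 to 0.7). Gabarapl1 was assigned 1820, 1743 and 1069 nt in mLN, against 1713, 1820 and 1820 nt in spleen, from its few counts. Among the 10051 tested genes whose length differed by more than 0.01 nt between libraries, 10.7% had groups without overlap.

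Of 24 other genes reported as FOXO targets in lymphocytes or other cells, all tested, 2 were higher in mLN and 9 were lower, beside 16.1% and 13.5% of all genes. Their median log2 fold change was -0.16 beside -0.01 over all tested genes, -0.24 on median-centred log2 TPM and 0.01 on log2 TPM without centring. With the length trend removed 1 of the 24 was higher and 8 were lower, beside 14.4% and 9.19% of all genes. Leaving out any 1 library gave 8 to 11 calls, 1 to 3 of them higher and 7 to 8 lower. Il7r, the IL-7 receptor chain that carries survival signals, fell to 404 ± 29.2 CPM in mLN, against 711 ± 48.9 CPM in spleen (SD, n = 3 each, as for all genes of the lists; edgeR quasi-likelihood adjusted p = 1.28e-08). Tcf7, a transcription factor of naive T cells, rose to 1307 ± 41.0 CPM in mLN, against 985 ± 42.4 CPM in spleen (adjusted p = 7.61e-06). Rbl2, a pocket protein of quiescent cells, was at 147 ± 2.49 CPM in mLN and 128 ± 7.61 CPM in spleen (adjusted p = 0.0389). The Rbl2 call ended with the length trend removed and when any 1 library other than spleen replicate 1 was left out. Ccr7 fell to 459 ± 19.3 CPM in mLN, against 576 ± 19.2 CPM in spleen (adjusted p = 1.53e-04). Its call held when any 1 library was left out. Klf2, at 296 ± 67.9 CPM in mLN and 208 ± 54.9 CPM in spleen, was not past the threshold (adjusted p = 0.266). Nor was S1pr1, at 648 ± 18.8 CPM in mLN and 632 ± 21.8 CPM in spleen (adjusted p = 0.672). Ccr7, Klf2 and S1pr1 were named after their values were seen. On log2 TPM without centring Klf2 and S1pr1 passed the threshold as higher (limma adjusted p of 0.0225 and 0.00738), and after centring neither did (adjusted p of 0.111 and 0.578). The Ccr7 call ended without centring (limma adjusted p = 0.471) and held after it (adjusted p = 0.0123). Uncentred, 4 of the 24 were higher and 2 lower, where 25.2% of all genes were called and 87.8% of those calls were higher. Centred, 1 was higher and 5 were lower, where 14% of all genes were called. The same shares apply to the log2 TPM counts of the lists below.

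Of 30 genes that act on FOXO proteins (PI3K and AKT kinases, phosphatases, YWHA adaptors, and acetylation or ubiquitin enzymes), all tested, 13 were higher in mLN and 1 was lower, beside 16.1% and 13.5% of all genes. Their median was 0.16, and 0.18 on median-centred log2 TPM. Inpp5d, a lipid phosphatase that lowers PI3K output, rose to 198 ± 13.2 CPM in mLN, against 129 ± 6.17 CPM in spleen (adjusted p = 1.6e-06). Ep300, an acetyltransferase that acts on FOXO proteins, rose to 313 ± 7.40 CPM in mLN, against 209 ± 13.5 CPM in spleen (adjusted p = 6.65e-07). Ywhaq, which encodes one of the phosphoserine-binding adaptors that hold FOXO proteins in the cytoplasm, fell to 163 ± 12.4 CPM in mLN, against 209 ± 8.52 CPM in spleen (adjusted p = 5.07e-04). Without the length trend 10 were higher and 3 lower, beside 14.4% and 9.19% of all genes. On median-centred log2 TPM 6 were called, all of them higher, where 14% of all genes were called, and the calls of Inpp5d and Ywhaq ended.

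The next list held 25 genes of amino acid signalling to mTORC1, on which sestrins act through GATOR2. They were genes of the GATOR complexes, KICSTOR, RAG GTPases and Ragulator, the sensor genes Castor1, Castor2 and Bmt2, and Flcn and Fnip1. All were tested, and 4 were higher in mLN and 4 lower, near the 29.6% called among all genes. The split was 4 and 2 without the length trend, 4 and 1 on log2 TPM, and 3 and 7 with upper-quartile factors. Among all genes 14.4% were higher and 9.19% lower without the length trend. With upper-quartile factors 45.3% of the calls among all genes were higher. The median was 0.04, and -0.06 on median-centred log2 TPM. Lamtor5, a Ragulator subunit, fell to 19.3 ± 3.23 CPM in mLN, against 32.2 ± 3.601 CPM in spleen (adjusted p = 4.26e-04). Sec13, shared by GATOR2 and vesicle coats, fell to 59.2 ± 2.30 CPM in mLN, against 76.8 ± 1.90 CPM in spleen (adjusted p = 0.00155). Itfg2, a KICSTOR gene, rose to 29.7 ± 3.49 CPM in mLN, against 18.7 ± 3.25 CPM in spleen (adjusted p = 0.00134). The count of calls was 5 without mLN replicate 1 or without spleen replicate 2, and on median-centred log2 TPM 2 were called, both lower, with Itfg2 not past the threshold. The Sec13 call ended with the length trend removed.

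Of 25 autophagy genes, 24 were tested, with 2 higher in mLN and 5 lower, near the 29.6% called among all genes. On log2 TPM 2 were called, both higher, and on the centred scale 4, all lower. The median was -0.10, and 0.09 on log2 TPM without centring. The ATG8 genes Gabarap (103 ± 3.59 CPM in mLN, 134 ± 5.46 CPM in spleen, adjusted p = 5.71e-04) and Map1lc3b (87.0 ± 2.53 CPM in mLN, 112 ± 4.57 CPM in spleen, adjusted p = 0.00103) fell. Gabarapl2, the other close relative of Gabarapl1, fell to 55.8 ± 4.01 CPM in mLN, against 70.9 ± 7.04 CPM in spleen (adjusted p = 0.00747, and 0.0671 without spleen replicate 1). Atg4d, an ATG8-processing protease (52.3 ± 4.34 CPM in mLN, 41.1 ± 3.14 CPM in spleen, adjusted p = 0.0124), lost its call without mLN replicate 3 or spleen replicate 2. Pik3r4, a subunit of the class III PI3K complex (50.6 ± 0.930 CPM in mLN, 41.3 ± 1.495 CPM in spleen, adjusted p = 0.0249), lost its call without any 1 library. The list held 4 calls without mLN replicate 3, spleen replicate 1 or spleen replicate 2. After the length trend was removed 1 was higher and 4 were lower, beside 14.4% and 9.19% of all genes. The calls of Gabarap, Gabarapl2 and Pik3r4 then ended.

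Of 21 p53 targets, listed because p53 also acts on Sesn1 and Sesn2, 17 were tested and 6 called, all of them lower in mLN, beside 29.6% called and 13.5% lower among all genes. The median was -0.12. Ccng1, the paralog of Ccng2, fell to 163 ± 15.3 CPM in mLN, against 214 ± 10.4 CPM in spleen (adjusted p = 3.16e-04). Fas, a death receptor, fell to 19.0 ± 2.14 CPM in mLN, against 31.3 ± 1.96 CPM in spleen (adjusted p = 2.32e-04). Without the length trend 7 were called, all of them lower, beside 23.5% called and 9.19% lower among all genes. On log2 TPM without centring, however, 1 was higher and 1 lower. Of the closest relatives of the members, Irs4 was at 0 in every library, Irs1 at 0.223 ± 0.324 CPM in mLN and 0 in spleen, and Irs3 at 0.223 ± 0.196 CPM in mLN and 0.307 ± 0.428 CPM in spleen. With Foxo6 these 4 genes did not pass the filter, and all 3 relatives that did (Ccng1, Gabarap and Gabarapl2) were lower in mLN. Among the genes named from the lists, the calls of Ccr7, Rbl2, Ywhaq, Sec13, Itfg2, Gabarap, Gabarapl2, Map1lc3b, Pik3r4 and Ccng1 ended on log2 TPM without centring. Those of Rbl2, Inpp5d, Ywhaq, Itfg2, Atg4d and Pik3r4 ended on the centred scale.

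**Figure D4:**
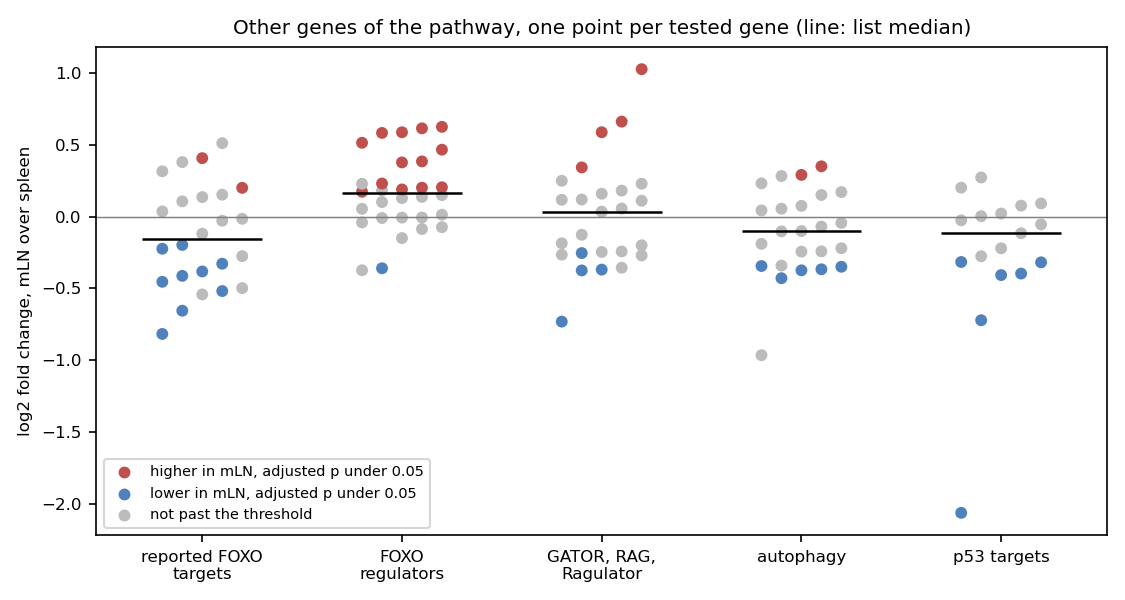
Log2 fold change, mLN over spleen, of each tested gene in 5 lists, with genes past an adjusted p of 0.05 in red (higher in mLN) or blue (lower in mLN), others in grey, and the list median as a line. The medians are -0.16 for reported FOXO targets, 0.16 for FOXO regulators, 0.04 for GATOR, RAG and Ragulator genes, -0.10 for autophagy genes and -0.12 for p53 targets, and on log2 TPM without centring, where the median of all tested genes is 0.21, they are 0.01, 0.43, 0.19, 0.09 and -0.04.

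The genes whose log2 CPM over the 6 libraries was most like that of each member were taken from tested genes averaging at least 10 CPM, by Pearson's r and as a description only. Libraries of a tissue share that tissue, so any gene with a large difference correlates with many others. For Foxo1 they were Usp25, Atf7ip and Skil (r of 0.999, 0.998 and 0.997), among 563 of 8282 genes with r of at least 0.95. For Foxo3 they were Rasal1, Sipa1l3 and Ctdsp2, among 217 genes. For Sesn1 they were BC147527, Ngly1 and Akirin1 (r of 0.996, 0.994 and 0.994), among 358 genes. For Sesn3 they were Slmap, Hjurp and Etnk1, among 380 genes. For Ccng2 they were Pik3ip1, Srp14 and Atp6v1d (r of 0.995, 0.994 and 0.993), among 291 genes. Pik3ip1, an inhibitor of PI3K that is also on the list of reported FOXO targets, had 139 ± 2.73 CPM in mLN and 181 ± 5.20 CPM in spleen. Foxo4, Sesn2, Gabarapl1 and Irs2, whose groups overlapped, had 9, 3, 12 and 17 such genes. Their closest were Pdf, Tpm1 and Usf1 for Foxo4, Map3k12, Zfp672 and Ptk2 for Sesn2, Recql, Tgs1 and Zfp59 for Gabarapl1, and Mknk1, Lig1 and Trpv2 for Irs2.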

How the data were processed

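Poly(A) RNA of naive CD4+ T cells was sequenced in 6 libraries, 3 from mLN and 3 from spleen, prepared with a directional kit per the labels. The authors aligned reads with STAR and counted genes with RSEM (genome build mm10), as the submitters' processing notes list them, with versions, annotation release and strand setting not given in the sources used here. Per the file headers, each deposited table holds expected counts (estimated counts that need not be whole), TPM, FPKM and transcript lengths. FPKM was used to recheck the order of levels. Symbols were found for 55141 of 55487 identifiers. Gene positions and transcripts are from GENCODE vM21 and promoter windows from RefSeq.

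Expected counts were rounded, filtered with filterByExpr, scaled with TMM factors and fitted with edgeR 4.0.16 (quasi-likelihood, robust, tissue as the only term, R 4.3.3), with Benjamini-Hochberg adjustment over 12486 genes and a threshold of 0.05. Fold changes are mLN over spleen. Log2(TPM + 1) was tested with limma 3.58.1, as deposited and centred on each library's median, so that its fold changes understate those of low genes. The length trend was removed with loess offsets of log count on transcript length (span 0.3). DESeq2 1.42.0, other factors, filters and pseudocounts and leaving out each library were alternatives. The code was tested on simulated data. A count of 3 was taken as the floor, for counting error only. Replicates differed by more than sampling noise (chi-square per degree of freedom of 5.60 to 11.9).

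The members, gene lists and tests were chosen with earlier results of these data known. Named genes are all members, the 2 genes with the smallest p in each direction of each list, all close relatives of members, and the 3 genes most like each member. Some genes that this rule names are not reported here. The labels do not state that replicate numbers pair libraries.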

Additional observations from a re-analysis of the deposited data

How the results depend on the processing

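Of 152 recomputed differences of single members, 138 stayed within 1 SD of the value reported, 14 moved by more and 0 of the called ones changed sign. All genes had 3699 calls, and 1745 or 1697 on median-centred log2 TPM with a pseudocount of 1 or 0.1, where the members had 3 and 3 calls in place of 5. The share of calls that were higher in mLN was 54.3%, and 45.3% with upper-quartile factors, 87.8% on log2 TPM and 45.7% on the centred scale. Calls on log2 TPM, its centred form and the centred form with a pseudocount of 0.1 were 6, 6 and 6 for reported FOXO targets (11 as reported), 5, 2 and 2 for GATOR, RAG and Ragulator genes (8 as reported), and 2, 4 and 4 for autophagy genes (7 as reported). FOXO regulators had 6 and 5 on the 2 centred forms (14 as reported). On log2 TPM the p53 targets had 2 calls (6 as reported) and the close relatives 0 (3 as reported), and the relatives had 1 with the length trend removed. Without 1 library, GATOR, RAG and Ragulator genes had 5 to 8 calls and autophagy genes 4 to 7. Members at the same place in the order of levels numbered 5 to 9 of 9 without 1 library in mLN and 5 to 9 in spleen, and 5 in spleen by the median. Groups without overlap in transcript length numbered 1 by effective length, with Sesn1 lost (2 as reported), and 2 to 3 without 1 library. The causes were not tested. Replicate numbers are shared between tissues, but the labels do not state pairs, so the main fit had no replicate term. Deviations of same-numbered libraries correlated by 0.0223, 0.0023 and 0.0652, and those of differently numbered libraries by -0.0456 to 0.0238. Replicate 3 had the highest chi-square per degree of freedom against its group in both tissues (10.6 and 11.9 in mLN, 9.05 and 10.1 in spleen, against 5.83 and 5.60 between replicates 1 and 2). Whether same-numbered libraries share a batch was not tested. With a replicate block all genes had 4706 calls, the members 5, and reported FOXO targets 5 higher and 10 lower. Scaling TPM to the same library median, an alternative chosen after seeing the data, moved the difference in summed TPM, mLN minus spleen, to -31.3 in place of -5.52 for sestrins and to 21.2 in place of 38.2 for FOXO genes. Counts of 25 to 104 a library limit Gabarapl1 and Sesn2.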
